A study of Mus musculus with 10 samples.

Results

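Gene expression in the distal colon of male mice of the outbred ICR stock was compared between the ages of 28 and 4 months. The 2 arrays used are those titled for this tissue among the 10 arrays of a study that also covered ileum, jejunum, liver and spleen at both ages. For each tissue and age, RNA was extracted from single mice, pooled in equal amounts and read on 1 Affymetrix Mouse Genome 430 2.0 array after labelling with a 3' in vitro transcription kit. The 4-month pool held 6 mice, obtained at 2 months of age. The 28-month pool held 9 mice, obtained at 8 months of age. Mice of both ages were housed singly under specific pathogen free conditions. The labels give the 4-month mice the AIN-93 diet. The protocol text attached to the 28-month intestinal arrays names 9 mice on AIN-93 and a further group of 10 mice whose AIN-93 contained 1 to 2% of LB81 yogurt, and the 28-month colon array's own title and traits do not state a diet. The study's design text gives 9 mice at 28 months, the size of the group on plain AIN-93. The sources used here do not say whether the 28-month intestinal arrays were prepared apart from the others, and such a difference cannot be told apart from age in the colon.

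The distal colon is lined by colonocytes, which absorb water, sodium and short-chain fatty acids, and by goblet cells, which secrete the mucus that separates bacteria from the epithelium. Scattered enteroendocrine cells release hormones into the tissue and blood. Beneath the epithelium lie connective tissue rich in collagen, lymphoid follicles in which B cells gather around stromal cells, and layers of smooth muscle with their nerves. Whole tissue was read here, so a lower signal from fewer cells of a type and one from less RNA per cell cannot be told apart.

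Signals are in arbitrary units, scaled to the same trimmed mean on every array, and a floor of 111 units, the median of all signals, stood for background. A ratio is the log2 of the 28-month over the 4-month signal, so 1 is a doubling. A gene was measured if its signal exceeded the floor at either age, and it was called higher or lower from 2-fold. Where 1 age lay under the floor, the floor took its place and the fold is given as at least that size. With 1 array per age there was no replicate check and no test. The internal check was the agreement of the probe sets, the groups of short probes that read different stretches of a gene's transcript. Probe sets differ in brightness, so a signal is compared between ages and tissues and not between genes.

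The distal colon arrays measured 12365 genes. At 28 months 63 of them (0.51%) had risen 2-fold or more and 61 (0.493%) had fallen 2-fold or more. At 1.5-fold, 318 (2.57%) were higher and 285 (2.3%) lower. These shares are the background for each list of genes described here. The lists were chosen with earlier results of these data known, so a share apart from this background is a description and not a test. The median ratio of all measured genes was 0.03, 55.4% of them had a ratio above 0, and 95.1% lay within 1.5-fold. The log2 values of the 2 arrays had r = 0.991 across 45101 probe sets, which are not independent replicates.

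**Figure D1:**
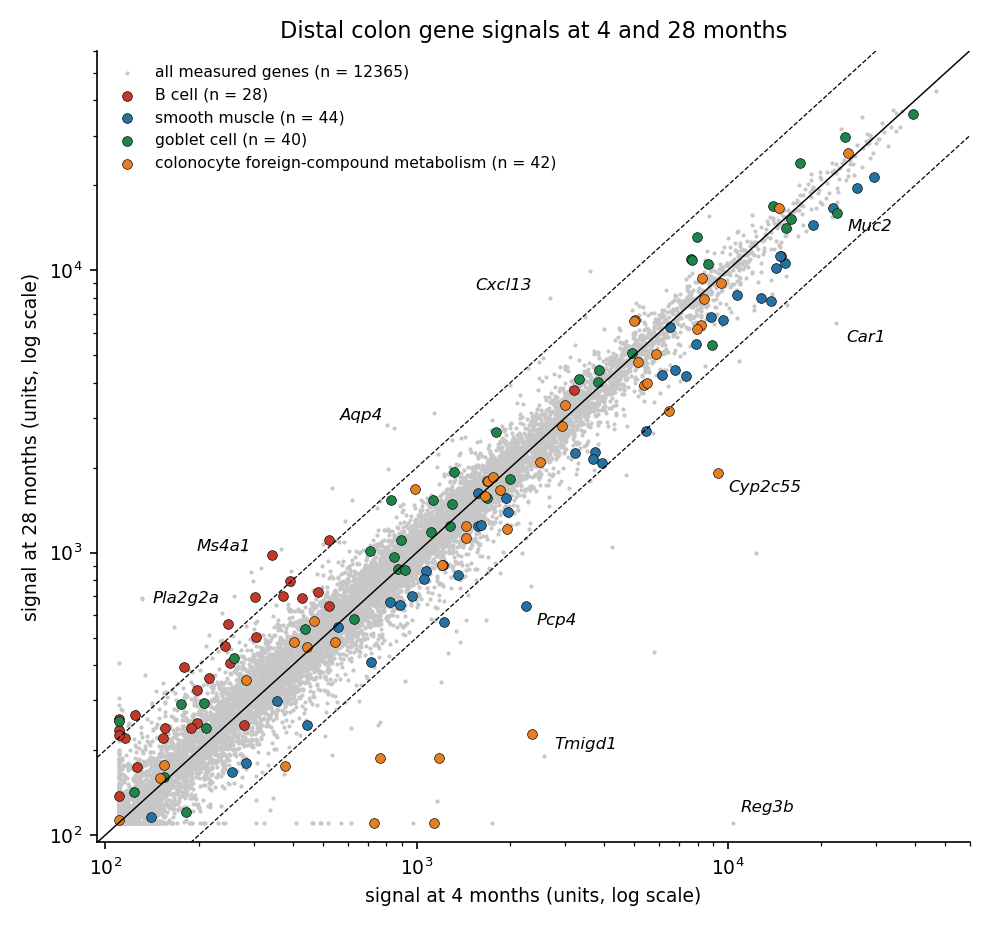
Signals of the 12365 measured genes in distal colon at 4 months (horizontal) and 28 months (vertical), in units on log axes, with signals under the floor drawn at 111 units. Colours mark 4 gene lists, the solid line marks equal signals and the dashed lines 2-fold; B cell genes lie mostly above the line, smooth muscle genes below it, and Reg3b, Tmigd1 and Cyp2c55 fall far below.

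Where a gene had more than 1 measured probe set, the sets of 54.7% of 5171 genes lay on one side of 0, and the SD between the ratios of a gene's sets had a median of 0.14 and a 95th percentile of 0.40. Among the 124 genes past 2-fold, 37 had more than 1 measured probe set. In 23 of the 37 every set differed 1.5-fold or more in the same direction, and in 4 a set lay on the other side of 0. These 4, named after their values were seen, were Plet1, with sets from -3.14 to 0.21, Igk, with sets from -0.57 to 1.49, Zc3h7b, with sets from -0.21 to 1.10, and Dnajc17, which fell 2.00-fold in its brightest set and stood at 0.32 in another. The other 87 genes past 2-fold rested on 1 measured probe set each. Of the 124 genes, 32 had 1 age under the floor, 13 of them higher and 19 lower at 28 months.

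Marker genes were read to check the labelled tissue. Hoxb13, a homeobox gene of the hindmost body segments, gave 6355 units at 4 months and 8492 at 28 months and at most 47 in the other tissues. Of 16 hind-end position genes found on the array 11 were measured, and Hoxd13 gave 4646 and 4280 units, Hoxd10 716 and 714. In that list 8 of the 11 had ratios below 0. Hoxb6 went from 209 units to 70, under the floor, and Hoxd9 stood at -0.41 and Hoxc9 at -0.22. The lowest ratio of the list was that of B4galnt2, at -3.70 in its brightest probe set, from 5781 to 445 units. The epithelial keratin Krt8 gave 31335 and 33359 units, Krt18 7406 and 8803, and the adhesion protein Epcam 22764 and 21103. In the squamous epithelium list, which would mark anal or skin tissue, 7 of 16 members were measured and their signals summed to 1640 and 1908 units. The defining squamous genes Krt14, Krt4, Krt13, Trp63 and Sprr3 lay under the floor at both ages, while Krt5 gave 173 and 136 units, Krt6a 132 and 156, and Sprr1a 141 and 109. Also measured in this list were Krt10, at 440 and 476 units, and Ly6d, at 283 and 550. In the skeletal muscle list 7 of 14 members were measured, with sums of 1945 and 1394 units, and Myh1, Myh4 and Tnnt3 lay under the floor. The muscle creatine kinase gene Ckm gave 758 and 459 units and the actin gene Acta1 484 and 429. The mesothelial genes Msln, Upk3b and Wt1 and the fat cell genes Adipoq, Lep and Cidec also lay under the floor at both ages. Other members of these lists were measured. Upk1b of the mesothelial list gave 209 and 210 units. In the fat cell list Fabp4 gave 2063 and 2507 units, Lpl 1341 and 527 and Pparg 790 and 877. Plin4 gave 785 and 492 units and Retn 168 and 177.

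Colonocyte genes of salt and water transport ran in both directions. Aqp4, a water channel, was 3.27-fold higher at 28 months, and Car1, a carbonic anhydrase of colonocytes, was 3.43-fold lower. Several genes of the aldosterone-regulated route of sodium uptake had ratios above 0, but less than 2-fold. Of 34 measured genes in this list 22 had ratios above 0, and the median was 0.14, against 0.03 for all genes. Among the 34, 7 were 1.5-fold or more higher and 2 lower, against 2.57% and 2.3% of all genes.

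Aqp4 gave 846 units at 4 months and 2767 at 28 months, and its other measured probe set had a ratio of 2.08 beside 1.71. Car1 gave 22226 units at 4 months and 6485 at 28 months from a single probe set. Both differences exceeded 3-fold, in opposite directions. Aqp8, a water channel of the colonocyte surface, went from 2479 to 4737 units, 1.91-fold. Sgk1, a kinase induced by mineralocorticoid hormone that keeps sodium channels at the membrane, went from 3467 to 6831 units, 1.97-fold. Atp12a, the colonic proton and potassium pump, went from 3236 to 5442 units, a ratio of 0.75. These genes were higher at 28 months, each from 1 probe set and each just short of or below 2-fold.

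The epithelial sodium channel has subunits encoded by Scnn1a, Scnn1b and Scnn1g. Scnn1a went from 265 to 410 units and Scnn1g from 389 to 619, ratios of 0.63 and 0.67, while Scnn1b went from 184 to 204, a ratio of 0.15. Prss8, a protease that activates the channel, had a ratio of 0.56, and Hsd11b2, which shields the mineralocorticoid receptor from glucocorticoids, one of 0.39. The receptor gene itself, Nr3c2, lay on the other side of 0 at -0.30. The electroneutral sodium route showed a lower value, since Slc9a3, a sodium and proton exchanger, went from 454 to 249 units, a ratio of -0.86, and Slc9a2 stood at -0.37. Slc4a4, a sodium bicarbonate cotransporter, was lower in all 4 of its probe sets, with ratios of -0.47, -0.55, -0.87 and -1.09. The chloride exchanger Slc26a3 stood at 0.05 and the chloride channel Cftr at -0.10. Slc26a2, a sulfate transporter, had a ratio of 0.38 and its other sets 0.31 and 1.12. The butyrate carriers Slc16a1 and Slc5a8 had ratios of -0.32 and -0.20. Slc6a14, an amino acid carrier, had sets on both sides of 0, at 0.42 and -0.49. In 6 of the 11 transport genes with more than 1 measured set the sets lay on one side of 0.

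Some enzymes that process foreign compounds were among the large epithelial falls. Of 42 measured genes in this list 8 fell 2-fold or more and none rose, against 0.493% of all genes that fell. The list was written with earlier results of these data known, so its share describes the members and tests nothing. The median ratio was -0.10, with 17 genes above 0, so the falls were those of a subset. Cyp2c65 and Cyp2c55 are intestinal cytochrome P450 enzymes. Cyp2c65 went from 2351 to 228 units, 10.3-fold lower, and Cyp2c55 from 9286 to 1919 units, 4.84-fold lower. Cyp4b1 went from 1177 to 187 units and Cyp4f14 from 763 to 188, ratios of -2.65 and -2.02. Ces1g, a carboxylesterase, went from 1139 units to 94, under the floor, at least 10.3-fold lower. Ugt2b5, which attaches glucuronic acid, went from 729 units to 22, at least 6.59-fold lower. Nqo1, a quinone reductase, went from 377 to 175 units, and Aldh1a1, an aldehyde dehydrogenase that makes retinoic acid, from 6480 to 3174 units.

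No glutathione transferase or sulfotransferase of this list passed 2-fold, and they lay on both sides of 0. Gstt1, a glutathione transferase, went from 1947 to 1213 units, a ratio of -0.68, and Gstk1 stood at -0.07. Gstm3 went from 987 to 1684 units, a ratio of 0.77 with its other set at 0.67. Gsta4 stood at 0.41 and Gstm1 at 0.40, with the other 3 sets of Gstm1 between 0.20 and 0.50. Sult1a1 stood at 0.19, Sult1b1 at 0.15 and Adh1, an alcohol dehydrogenase, at 0.10. The nuclear receptor genes had ratios of 0.28 for Nr1i2, which responds to foreign compounds, and -0.22 for Ahr, which responds to aryl hydrocarbons. The drug exporters Abcb1a and Abcg2 stood at -0.47 and -0.16. Sult1d1 and Hpgd, the latter a prostaglandin-degrading enzyme, both stood at -0.36 and their other sets were lower still, at -0.82 and -0.96.

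Genes of colonocyte identity and the cell surface changed little apart from a pair of large falls. Of 28 measured genes 26 lay within 1.5-fold, and the median was -0.10. Tmigd1, a membrane protein of the epithelial brush border, went from 2571 to 191 units, 13.5-fold lower, and Emp1, an epithelial membrane protein, from 4730 to 1887 units, 2.51-fold lower. Both rested on a single probe set. Ceacam1, an adhesion molecule of the colonocyte surface, was lower in all 8 of its probe sets, between -0.07 and -0.49. Krt20, a keratin of mature colonocytes, stood at -0.38, Cdh1, the epithelial cadherin, at -0.30, Lypd8, which keeps flagellated bacteria away, at -0.04, Vil1, villin, at 0.01, and the intestinal transcription factors Cdx1 and Cdx2 at 0.22 and 0.16.

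Several genes that the small intestine expresses strongly were among the largest falls. Of 14 measured genes of small intestinal absorption 9 had ratios below 0. A fall of 2-fold or more was seen in 3 (21.4%) and a rise in 1 (7.14%), against 0.493% and 0.51% of all genes. Alpi, Slc51a and Slc10a2 lay under the floor at 28 months, so their ratios could only lie below 0. Alpi, intestinal alkaline phosphatase, went from 972 units to 82, at least 8.78-fold lower. Slc51a, a subunit of the basolateral bile acid exporter, went from 614 units to 64, at least 5.55-fold lower. Fabp2, the intestinal fatty acid binding protein, went from 4246 to 1049 units, 4.05-fold lower. Apob, which forms chylomicrons, moved the other way, from 533 to 1700 units, 3.19-fold higher. Fabp6, a bile acid binding protein, went from 272 to 429 units, a ratio of 0.66. The list thus held genes in both directions.

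The 20 genes named for the largest falls were set beside the other tissues. In 14 of the 20 (70.0%) both ileal signals were above both colon signals, against 27.1% of all measured genes and 47.5% of the 61 genes lower 2-fold or more. In 10 of the 20 all 4 small intestinal signals were above both colon signals, against 21.0% of all measured genes. Isx, a homeobox gene of the small intestine that controls vitamin A uptake, gave 520 and 97 units in colon and 1897 and 2642 in ileum. Slc3a1, a subunit of the cystine transporter, gave 492 and 89 units in colon and 5494 and 6313 in ileum. Others of the 20 were brighter in colon at 4 months than in small intestine at either age. 1810065E05Rik gave 12325 units at 4 months and 1000 at 28 months in colon, 12.3-fold lower, against 1828 and 2706 in ileum. Cyp2c55 gave 737 and 877 units in ileum and 218 and 96 in jejunum, under both of its colon signals. The sources used here give no sampling position along the colon, and the part of position in these falls was not tested.

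**Figure D2:**
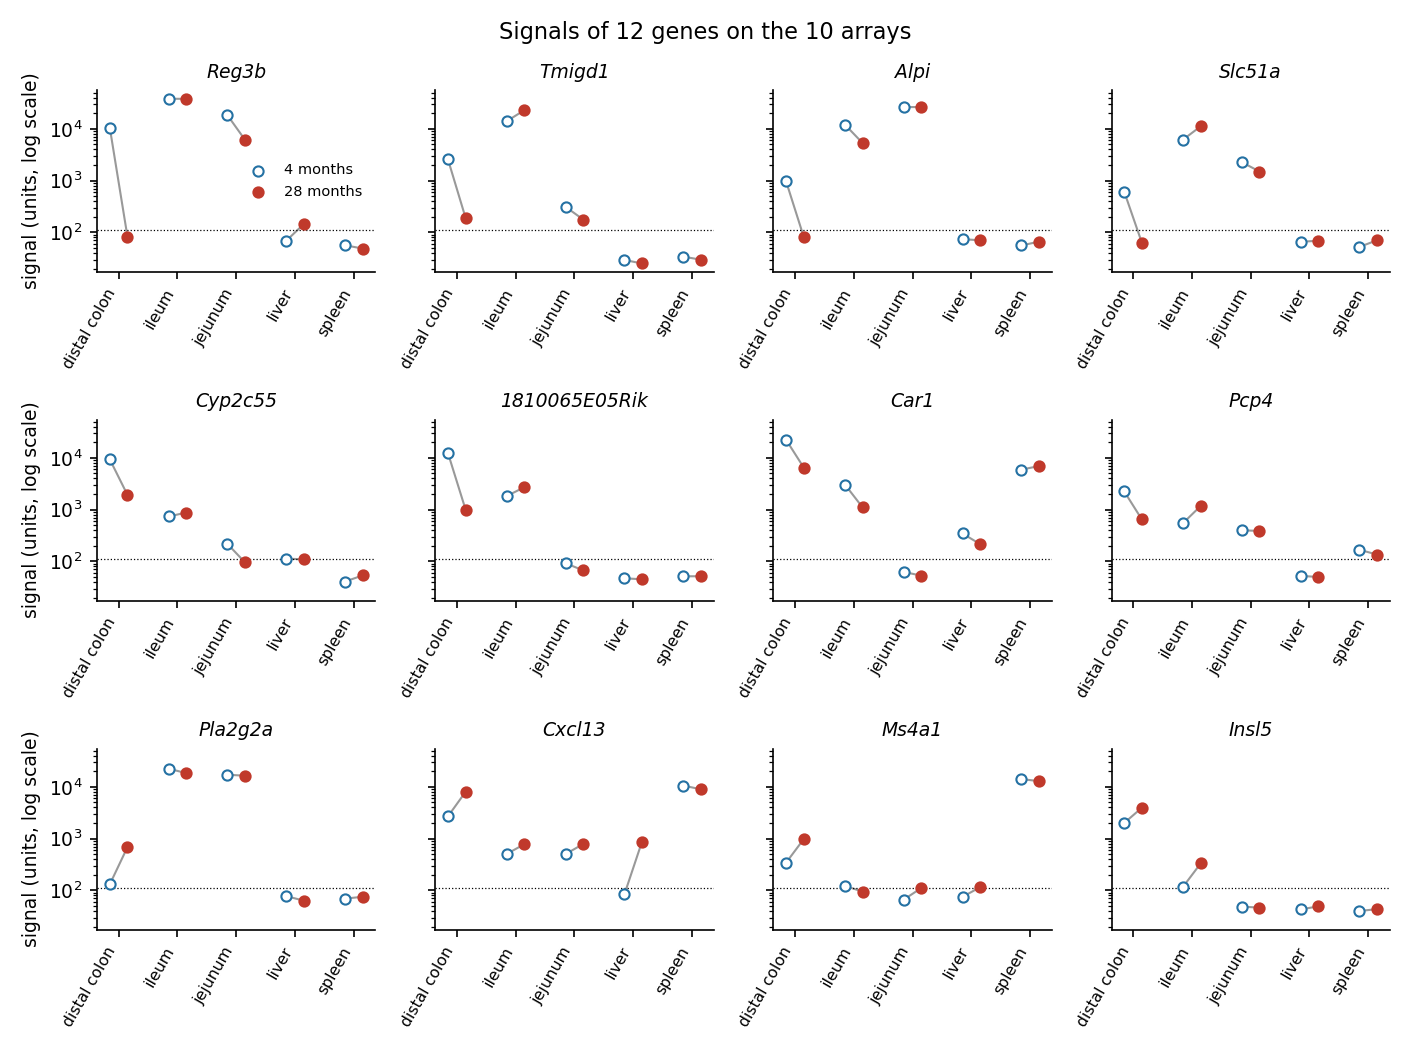
Signals of 12 genes on all 10 arrays, in units on a log axis, with an open point for 4 months and a filled point for 28 months in each tissue and a dotted line at the floor of 111 units. Alpi and Slc51a were brighter in ileum and jejunum than in colon, Cyp2c55, 1810065E05Rik and Car1 were brightest in the 4-month colon, and Cxcl13 and Ms4a1 were brightest in spleen.

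B4galnt2, which builds a blood group-like sugar on intestinal mucins, shows what a single probe set can do. Its brightest set went from 5781 to 445 units, a ratio of -3.70, and a second set stood at -1.12. The third went from 111 units, just above the floor, to 51, so its ratio of -0.01 or lower is only a bound. The sets at -3.70 and -1.12 both lay below 0 but differed in the size of the fall. The third could only lie below 0, so it tells neither direction nor size. Sptssb, a subunit of the enzyme that starts sphingolipid synthesis, likewise had sets at -3.38 and -0.98, the brighter one going from 1154 units to 42, so that its ratio is -3.38 or lower.

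The largest falls of all measured genes were those of a pair of antimicrobial lectins. Reg3b, a lectin that damages bacterial envelopes, went from 10366 units at 4 months to 83 at 28 months, at least 93.6-fold lower, and its second measured probe set had a ratio of -6.92 or lower. Reg3g, its close relative, went from 1751 units to 78, at least 15.8-fold lower. Saa3, a serum amyloid protein made in inflamed tissue, went from 464 units to 104, at least 4.19-fold lower. Pla2g2a, a secreted phospholipase that kills gram-positive bacteria, moved the other way, from 132 to 686 units, 5.21-fold higher. Reg3b and Reg3g are close in sequence, and whether their probes read each other's transcripts was not tested.

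Among 19 measured defence genes 3 fell (15.8%) and 1 rose (5.26%) 2-fold or more, against 0.493% and 0.51% of all genes. Within 1.5-fold lay 13, and the median was -0.04. Saa1, another serum amyloid, stood at 17037 and 17389 units, a ratio of 0.03. Retnlb, a goblet cell protein that binds bacteria, went from 8892 to 5430 units, a ratio of -0.71. Lcn2, an iron-sequestering protein, went from 94 units, under the floor, to 158, a ratio of at least 0.52. The inducible nitric oxide synthase gene Nos2 lay under the floor at both ages. In the small intestine Reg3b stayed bright at both ages, at 37929 and 37730 units in ileum and 18206 and 6079 in jejunum.

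Goblet cell genes lay slightly higher at 28 months, while the gene of the main mucin lay lower. Of 40 measured genes 29 had ratios above 0, against 55.4% of all genes, and the median was 0.20. Among the 40, 5 were 1.5-fold or more higher and 1 lower, against 2.57% and 2.3% of all genes. Only Nxpe4 passed 2-fold, going from 93 units, under the floor, to 253, at least 2.28-fold higher. Muc2, which forms the colonic mucus gel, went from 22501 to 16013 units, a ratio of -0.49 from its single measured probe set. Zg16 and Clca1, secreted with the gel, had ratios of -0.13 and -0.08, and Fcgbp, a further protein of the gel, one of 0.28.

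Reg4, a secreted lectin of colonic secretory cells, went from 7977 to 13159 units, a ratio of 0.72. Ceacam10, a secreted member of the carcinoembryonic family, went from 829 to 1540 units, a ratio of 0.89 with its other set at 0.73. Spink4, a protease inhibitor of goblet cells, stood at 0.52, Wfdc2 at 0.50 and the trefoil peptide Tff3, which aids epithelial repair, at 0.32. Among regulators, Atoh1, the transcription factor that commits cells to the secretory lineage, went from 1324 to 1930 units, a ratio of 0.54. Spdef, which drives goblet cell maturation, stood at -0.11, and Foxa1, Foxa2 and Foxa3 at 0.07, 0.31 and 0.19. Agr2, a protein-folding enzyme needed for mucin, had sets at 0.28 and -0.60, and Clca1 had a second set at 0.59. Sets lay on one side of 0 in 6 of the 10 goblet genes with more than 1 measured set. Best2, a bicarbonate channel of colonic goblet cells, stood at 0.57.

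Enteroendocrine genes divided by hormone. Genes of hormones made by the L cells of the colon were higher at 28 months, genes of neurotensin, secretin and somatostatin were lower, and genes shared by many endocrine cells lay on both sides of 0. Of the list's measured genes 24 lay within 1.5-fold. At 1.5-fold or more, 3 were higher and 5 lower, against 2.57% and 2.3% of all genes. Of 32 measured genes 13 had ratios above 0 and the median was -0.04. Ppy, pancreatic polypeptide, rose 2.89-fold, from 295 to 852 units, and Nts, neurotensin, fell at least 4.18-fold, from 463 units to 42.

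Insl5, a hormone of colonic L cells linked to appetite, went from 1998 to 3940 units, 1.97-fold. Pyy, peptide YY, which slows transit and reduces feeding, went from 2879 to 4236 units, a ratio of 0.56. Gcg, which encodes the glucagon-like peptides, went from 1264 to 1685 units, a ratio of 0.41. These were higher at 28 months without reaching 2-fold. Sct, secretin, went from 510 to 273 units and Sst, somatostatin, from 519 to 345, ratios of -0.90 and -0.59. The granule proteins Chga and Chgb stood at -0.02 and -0.06, and Tph1, which starts serotonin synthesis in enterochromaffin cells, at -0.12. Scg3, another granule protein, went from 477 to 288 units, a ratio of -0.73, and Pcsk1, which cuts prohormones, from 137 units to 101, under the floor. Among transcription factors, Isl1 had sets at -0.91 and -0.65, Neurod1 sets at 0.38 and 0.42, and Insm1 sets at 0.74 and 0.01. The fatty acid receptor gene Ffar4 stood at 0.26, and Ffar2 had sets on both sides of 0, at -0.23 and 0.36. Cck, Gip and Ghrl, hormones of the upper gut, lay under the floor at both ages.

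Smooth muscle genes lay lower at 28 months almost throughout. Of 44 measured genes 43 had ratios below 0. Among the 44, 15 were 1.5-fold or more lower, against 2.3% of all genes, and 3 (6.82%) fell 2-fold, against 0.493%. The median was -0.47, against 0.03 for all genes. The list's signals summed to 288012 units at 4 months and 204988 at 28 months. In 18 of the 21 genes with more than 1 measured probe set, the sets lay on one side of 0.

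Pcp4, a calmodulin regulator found in smooth muscle, went from 2251 to 648 units, 3.47-fold lower. Myom1, which links thick filaments, went from 1227 to 568 units, and Pdlim3, a protein of the contractile anchor points, from 5456 to 2688 units, ratios of -1.11 and -1.02. These 3 genes had 1 measured probe set each. Genes with several sets lay below 0 in most of their sets, with sizes that differed between sets in some. Myh11, the smooth muscle myosin heavy chain, went from 13757 to 7805 units, with sets at -0.82 and -0.77. Synpo2, an actin-bundling protein, had sets at -0.39, -0.92, -0.94 and -1.20, Tpm1, a tropomyosin, at -0.51, -0.58 and -0.68, and Pln, which restrains the calcium pump, at -0.70, -0.71 and -0.80. Actg2, the enteric actin, stood at -0.52, and Acta2, the vascular and enteric actin, at -0.46 with a second set at -1.20. Myocd, the coactivator that turns on contractile genes, went from 446 to 246 units, a ratio of -0.86. Its partner Srf had sets on both sides of 0, at -0.35 and 0.14. Cnn2, a calponin also made outside muscle, was the 1 member above 0, at 0.05.

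Smooth muscle promoters are known to carry CArG boxes, the sites that Srf binds. Promoter sequence from RefSeq (build GRCm38.p6, from 250 bases before to 50 bases after the start of a gene) was searched for the CArG box on both strands. Of 44 measured smooth muscle genes 39 were in the promoter table and 7 (17.9%) held a match, against 1.63% of the 32851 promoters in the table and 1.81% of its genes. The matches were in Myl9, Srf, Vcl, Fhl1, Dmd, Myom1 and Cnn2. Among members with a match, the ratios largest in size were those of Myom1, at -1.11, and Vcl, which encodes the anchor protein vinculin, at -0.62, and their promoters are printed with the match in capitals. The Myom1 promoter lies at chr17:71019307-71019606 on the plus strand and its match starts 99 bases before the gene. The Vcl promoter lies at chr14:20929148-20929447 on the plus strand and its match starts 227 bases before the gene. Cnn2, which also held a match, did not lie lower, and a match describes the letters and not the binding of a factor.
Myom1: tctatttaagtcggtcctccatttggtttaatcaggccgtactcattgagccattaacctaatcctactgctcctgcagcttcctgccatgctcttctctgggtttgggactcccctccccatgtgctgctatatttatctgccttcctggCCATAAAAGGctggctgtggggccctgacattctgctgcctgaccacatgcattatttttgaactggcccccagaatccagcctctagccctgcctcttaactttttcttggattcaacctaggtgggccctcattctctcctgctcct
Vcl: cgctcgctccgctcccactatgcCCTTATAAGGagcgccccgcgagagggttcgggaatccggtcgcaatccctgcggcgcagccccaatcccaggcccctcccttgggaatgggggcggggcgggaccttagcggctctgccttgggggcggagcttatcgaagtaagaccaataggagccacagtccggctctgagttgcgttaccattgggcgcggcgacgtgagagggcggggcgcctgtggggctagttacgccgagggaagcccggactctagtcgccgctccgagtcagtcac

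Other cells of the muscle wall did not move with the muscle genes to the same size. Of 29 measured genes of enteric neurons and glia 27 had ratios below 0, but the median was -0.21 and 0 passed 2-fold. Vip, the relaxing neuropeptide, went from 3710 to 1970 units, a ratio of -0.91. Nos1, the neuronal nitric oxide synthase, had sets at 0.04 and -0.33, and Uchl1, a marker of neuronal cell bodies, stood at -0.29. Of 5 measured genes of the interstitial cells of Cajal, the pacemakers of gut movement, 4 had ratios above 0. Kit, their growth factor receptor, went from 1081 to 901 units, a ratio of -0.26, and their chloride channel Ano1 from 6914 to 7783 units, with sets at 0.17 and 0.20.

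**Figure D3:**
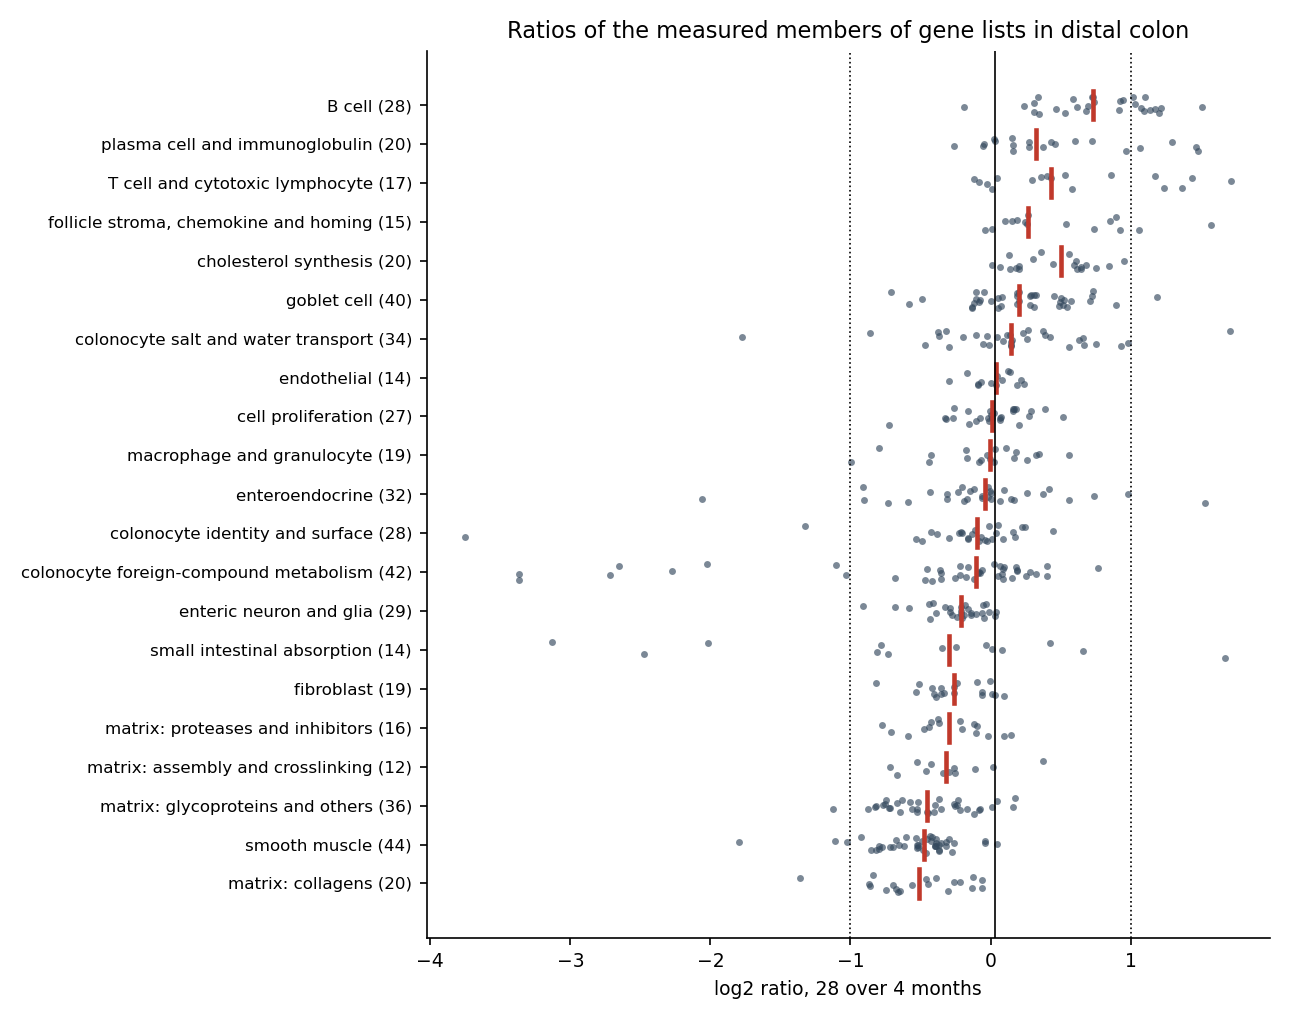
Ratios (log2, 28 over 4 months) of the measured members of 21 gene lists in distal colon, 1 point per gene, with each list's median as a red bar and its number of measured genes in parentheses. The solid line marks the median of all measured genes and the dotted lines 2-fold; the lymphoid and cholesterol lists lie to the right, and the muscle and matrix lists to the left.

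Extracellular matrix genes lay lower at 28 months together, most by less than 2-fold. Over the 4 matrix lists combined, 75 of 83 measured genes had ratios below 0, and the median was -0.40. Of the 83, 25 were 1.5-fold or more lower and 0 higher, against 2.3% and 2.57% of all genes. A 2-fold fall was seen in 2, against 0.493% of all genes. Nid2, Mmp3, Mmp9, Timp1 and Adamts4 lay under the floor at 28 months, so their ratios could only lie below 0. Fmod and Mmp10 lay under it at 4 months and could only lie above 0. All 20 measured collagen genes were below 0, with a median of -0.51. In all 13 collagen genes with more than 1 measured set the sets lay on one side of 0, where 54.7% of all such genes did so. Ratios of all genes lay mostly near 0, where sets fall on both sides more readily, so these shares do not compare agreement. A Col5a1 set, at 122 and 100 units, was under the floor at 28 months and could only lie below 0.

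Among the fibrillar collagens, Col1a1 went from 617 to 240 units, a ratio of -1.36 with a second set at -0.39. Col1a2 went from 10720 to 6765 units, with sets at -0.66 and -1.39, and Col3a1 from 13862 to 8271 units, with sets at -0.74 and -0.96. The sets of these genes differed in size and not in direction. Col5a1 and Col5a2, which set the width of fibrils, stood at -0.68 and -0.86. Basement membrane collagens were lower as well, with Col4a1 at -0.65, Col4a2 at -0.56 and Col4a5 at -0.84, though a second set of Col4a1 stood at -0.05. Col6a3 went from 3093 to 1697 units, a ratio of -0.87, while its partners Col6a1 and Col6a2 stood at -0.31 and -0.22. The nearest to 0 were Col8a1 and Col15a1, both at -0.06.

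Glycoproteins, proteoglycans and elastic fibre genes had a median of -0.45, with 32 of 36 below 0. Aspn, asporin, a small leucine-rich proteoglycan, went from 2185 to 1001 units and fell 2.18-fold, with its second set at -1.03. Fn1, fibronectin, went from 8431 to 4598 units, with sets at -0.87 and -0.90. Postn, periostin, went from 12178 to 7220 units, a ratio of -0.75, and Lum, lumican, stood at -0.73. Dcn, decorin, was nearer 0, at -0.37, and Bgn, biglycan, at -0.17. The laminin genes Lama2, Lamb1 and Lamc1 stood at -0.75, -0.53 and -0.83, and nidogen-1, Nid1, had sets at -0.77 and -0.93. Eln, elastin, stood at -0.09, with its other measured set, brighter in colon, at -0.37. Fbln1 and Ltbp4 lay above 0 at 0.16 and 0.17.

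Genes that assemble and crosslink matrix had a median of -0.32 and 10 of 12 below 0. Lox, which crosslinks collagen, went from 200 to 126 units, a ratio of -0.67, and Pcolce, which speeds procollagen trimming, stood at -0.52. Serpinh1, the collagen chaperone, stood at -0.30, and Plod2, a lysyl hydroxylase, at 0.02. Genes that degrade matrix or block its degradation also lay lower, with a median of -0.29 and 14 of 16 below 0. Mmp2 had sets at -0.44 and -0.45, Timp2 stood at -0.42 and Timp3 at -0.37, and Mmp14 lay above 0 at 0.15. Neither of these lists had a median above 0. Fibroblast markers had a median of -0.26, with 16 of 19 below 0. Grem1, a BMP antagonist of the cells beneath the crypts, went from 908 to 516 units, a ratio of -0.82, Pdgfra stood at -0.42 and Thy1 at -0.00. The endothelial list had a median of 0.04, with all 14 measured genes within 1.5-fold.

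**Figure D4:**
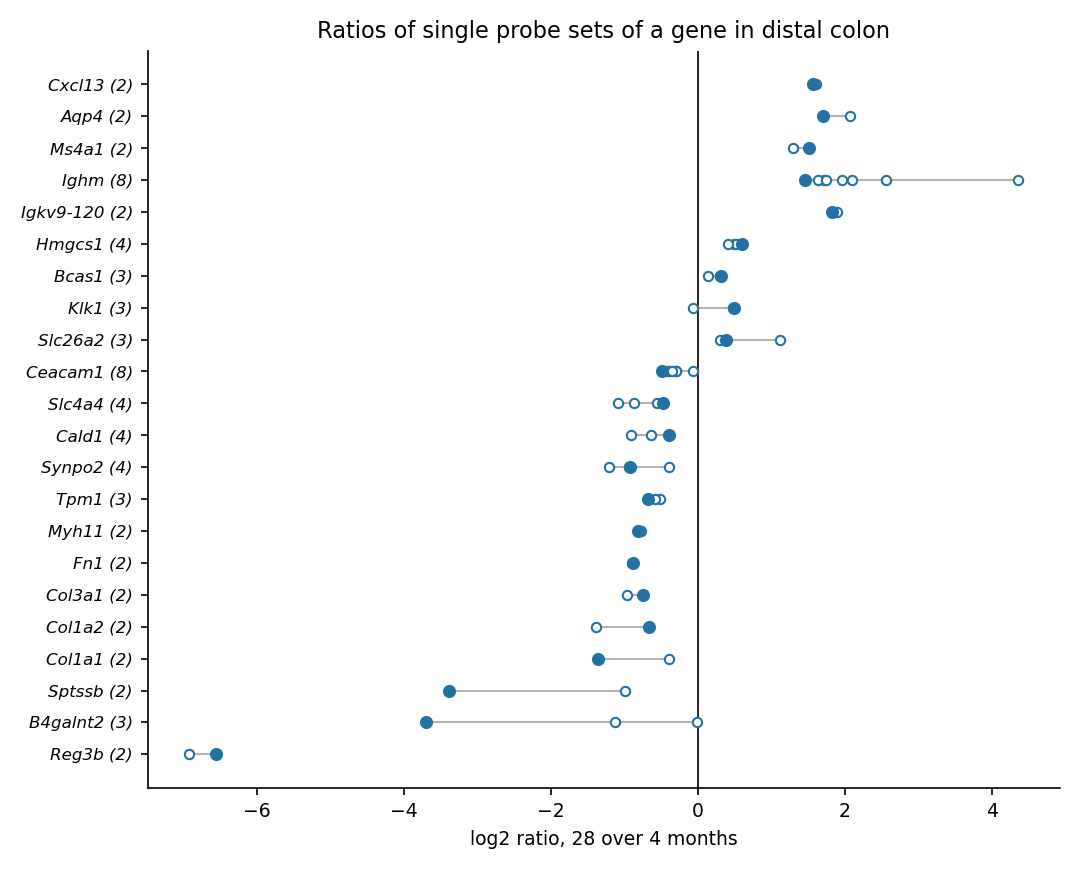
Ratios (log2, 28 over 4 months) of every measured probe set of 22 genes in distal colon, with the set that represents the gene filled, the others open, and the number of measured sets in parentheses. Sets of Reg3b, Cxcl13, Myh11 and Fn1 lie close together, while those of B4galnt2, Sptssb and Ighm spread over more than 2 log2 units.

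Genes of lymphoid follicles were higher at 28 months. Of 28 measured B cell genes 27 had ratios above 0, 20 were 1.5-fold or more higher and 10 rose 2-fold or more (35.7%), against 0.51% of all genes. The median was 0.73. Cxcr5, Fcrla, Ikzf3 and Fcer2a are in these counts but lay under the floor at 4 months. They were measured only through the 28-month array, so their ratios could only lie above 0. The list's signals summed to 9942 units at 4 months and 15848 at 28 months. Only 4 of the 28 genes had more than 1 measured probe set, and in 3 of these the sets lay on one side of 0. Cxcl13, the chemokine by which follicle stroma attracts B cells, rose 2.97-fold, from 2685 to 7984 units, and its second set gave a ratio of 1.61 beside 1.57.

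Ms4a1, the B cell surface protein CD20, went from 343 to 978 units, with sets at 1.51 and 1.29. Cxcr5, the receptor for Cxcl13, went from 103 units, under the floor, to 227, a ratio of at least 1.03. The receptor signalling partners Cd79a and Cd79b stood at 0.93 and 1.02, and Cd22, which dampens that signal, at 0.92. Bank1, an adaptor of B cell signalling, went from 303 to 697 units and Fcmr, a receptor for IgM, from 248 to 560 units. Ltb, lymphotoxin beta, with which B cells maintain follicle stroma, went from 525 to 1107 units, a ratio of 1.08. Spib, a transcription factor of B cells and antigen-sampling epithelium, stood at 0.95 and Ikzf3 at 1.22 or more. Members nearer 0 were Cr2, a complement receptor, at 0.34, the adaptor Blnk at 0.24, and Ebf1, a B lineage transcription factor, whose sets ran from -0.19 to 0.23.

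Few germinal centre genes could be read. Of 8 found on the array 4 were measured, with a median of 0.02. Serpina9, a germinal centre B cell gene outside that list and one of the 20 named for the largest rises, went from 112 to 280 units, a ratio of 1.32. Bcl6, the germinal centre transcription factor, went from 414 to 475 units, a ratio of 0.20, and Fas, a death receptor, stood at -0.44. Gcsam, Rgs13, Il21 and Mybl1 lay under the floor at both ages. Among 15 measured genes of follicle stroma and lymphocyte homing 14 had ratios above 0. At 1.5-fold or more, 6 were higher, against 2.57% of all genes. Ccl20, which draws cells to the epithelium over follicles, went from 352 to 655 units, a ratio of 0.89, and its receptor Ccr6 from 215 to 359 units, a ratio of 0.74. Gp2, a receptor of antigen-sampling M cells, rose 2.08-fold, from 141 to 294 units. Madcam1, the address molecule of gut venules, went from 120 to 200 units and Chst4, an enzyme that modifies vessel ligands for lymphocytes, from 246 to 445 units. Vcam1 and Icam1 stood at 0.27 and 0.26. The sources used here do not say how many follicles each pool's tissue held, and the part of their number in these values was not tested.

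The octamer ATGCAAAT, a site of B cell transcription factors and their coactivator Pou2af1, was searched in the same promoters on both strands. Of 28 measured B cell genes 22 were in the promoter table and 3 (13.6%) held a match, against 1.74% of all promoters in the table and 1.97% of its genes. They were Blnk, Ccr6 and Vpreb3. The promoter of Ccr6, the member with a match and the largest ratio, lies at chr17:8235793-8236092 on the plus strand. Its match, in capitals, is on the minus strand and starts 68 bases before the gene.
Ccr6: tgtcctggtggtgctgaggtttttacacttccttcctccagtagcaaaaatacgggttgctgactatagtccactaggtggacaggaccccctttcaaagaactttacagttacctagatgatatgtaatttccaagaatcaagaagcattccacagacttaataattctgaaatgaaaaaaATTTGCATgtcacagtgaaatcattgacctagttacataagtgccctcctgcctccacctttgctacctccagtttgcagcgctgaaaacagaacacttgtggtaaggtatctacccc

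Antibody genes were higher for IgM and less so for IgA. Ighm, the IgM heavy chain, rose 2.76-fold, from 3601 to 9942 units, and all 8 of its measured sets lay between 1.46 and 4.36. Igha, the heavy chain of the IgA that gut plasma cells secrete, went from 27080 to 35056 units, with sets at 0.37, 0.45 and 0.60. Jchain, which joins antibody units, stood at 0.27 and Xbp1, which prepares plasma cells for secretion, at 0.15. Pou2af1 rose 2.79-fold and Mzb1, a chaperone of antibody assembly, 2.45-fold. Of 20 measured genes of plasma cells and immunoglobulins 17 had ratios above 0 and the median was 0.32. In this list 4 rose 2-fold or more (20%), against 0.51% of all genes. Probe sets agreed less here than elsewhere. In 3 of the 9 genes with more than 1 measured set the sets lay on one side of 0, where 54.7% of all such genes did so. Among light chain genes outside the list, Igkv6-14 went from 131 to 693 units and Igkv9-120 from 806 to 2843 units. Segments of the antibody families are alike in sequence, and the ratio of any 1 of them is uncertain.

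T cell genes showed higher ratios for some members. Of 17 measured genes 14 had ratios above 0 and the median was 0.43, while 14 of 31 found on the array lay under the floor at both ages. In this list 5 rose 2-fold or more (29.4%), against 0.51% of all genes. Cd3g and Icos were under the floor at 4 months, so their ratios could only lie above 0. Ms4a4b, a T cell membrane protein, rose 3.29-fold, from 166 to 547 units. Ccl5, a chemokine of activated T cells, went from 260 to 703 units and Cd3d, a receptor subunit, from 153 to 345 units. Cd4 gave 219 and 226 units and Cd8a 151 and 152, ratios of 0.05 and 0.01. The Cd8a value came from a single probe set, and all other Cd8a sets lay under the floor at both ages. Il7r, a survival cytokine receptor, had sets at 1.37 and 0.09. Of the 63 genes 2-fold or more higher, 49.2% had both spleen signals above both colon signals, against 37.2% of all measured genes.

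Macrophage and granulocyte genes had a median of -0.00, with 9 of 19 above 0, 2 lower by 1.5-fold or more and 17 within 1.5-fold. Mrc1 and Cd163, scavenger receptors of resident macrophages, went from 1147 to 575 and from 823 to 473 units, 1.99-fold and 1.74-fold lower. Another scavenger receptor, Msr1, went from 235 to 347 units, with sets from -0.34 to 0.56, and the macrophage surface protein Adgre1 stood at -0.42. Complement genes, named after their values were seen, stood at -0.09 for C1qb and 0.03 for C1qc, and the chemokine receptor gene Cx3cr1 at 0.18. Csf1r, the macrophage growth factor receptor, was lower in its 3 sets, at -0.36, -0.41 and -0.44. Lyz2, a lysozyme of myeloid cells, stood at 0.26, Cd68 at 0.35 and C1qa at 0.03. Genes of antigen presentation by MHC class II had a median of 0.36, with Cd74, the invariant chain, at 0.68 and H2-Aa at 0.03. Of 21 measured genes of the interferon response 18 lay above 0, against 55.4% of all genes, and the median of the list was 0.37. Oasl2 and Usp18 are among the 18 but lay under the floor at the younger age, so their ratios could only lie above 0. Oasl2 rose at least 2.02-fold, from 99 units to 223, and Gbp2 lay lower, with sets at -0.73 and -0.65.

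Genes of cholesterol synthesis lay higher as a group, none by 2-fold. All 20 measured genes had ratios above 0, and the median was 0.50. At 1.5-fold or more, 9 were higher, against 2.57% of all genes. In all 11 with more than 1 measured set the sets lay on one side of 0. Fdps, which makes farnesyl diphosphate, went from 744 to 1440 units, a ratio of 0.95. Idi1, an isomerase, had sets at 0.84 and 0.98, and Sqle, squalene epoxidase, stood at 0.61. Hmgcs1, the synthase at the start of the pathway, went from 5070 to 7674 units, with sets at 0.41, 0.50, 0.52 and 0.60. Its promoter was the only one of 16 in the table with the sterol regulatory element TCACNCCAC on either strand (6.25%, against 1.24% of all promoters and 1.44% of genes). It lies at chr13:119690101-119690400 on the plus strand, and the match, in capitals, starts 137 bases before the gene.
Hmgcs1: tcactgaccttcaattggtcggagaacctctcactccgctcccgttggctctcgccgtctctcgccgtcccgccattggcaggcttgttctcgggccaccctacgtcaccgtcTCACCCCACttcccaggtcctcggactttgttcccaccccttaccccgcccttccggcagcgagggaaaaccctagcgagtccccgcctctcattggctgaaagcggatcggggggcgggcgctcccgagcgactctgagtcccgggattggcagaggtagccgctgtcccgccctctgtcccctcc

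Crypt genes had medians near 0, with single genes on both sides. Proliferation genes had a median of 0.01 over 27 measured members, with Mki67 at -0.27, Pcna at 0.07 and Mcm2 at 0.52 and 0.45 in its sets. Ccna2, a cyclin, had sets at -0.72 and -0.01. Stem cell and Wnt genes had a median of 0.03, and 13 of 16 lay within 1.5-fold. Lgr5, the crypt base stem cell receptor, went from 145 to 242 units, a ratio of 0.74, Ascl2 had sets at 0.22, 0.29 and 0.76, and Axin2, a Wnt target, stood at 0.22. Prom1 fell 2.17-fold, from 5760 to 2653 units, and Tnfrsf19, a Wnt-responsive receptor, went from 205 units to 102, under the floor. Prdm14, a transcription factor of pluripotent cells, was among the 20 named genes that rose, from 279 to 1023 units, and gave at most 107 units in the other tissues. Immediate early genes, which respond to handling and cell stress, had a median of 0.04, with Fos at 2990 and 3071 units and Nr4a1 at -0.50.

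The same lists in other tissues had other medians. Smooth muscle genes had a median of 0.72 in ileum, 0.07 in jejunum and -0.11 in spleen, against -0.47 in distal colon. Collagen genes stood at 0.06 in ileum and -0.03 in jejunum, against -0.51. B cell genes stood at -0.14 in ileum, 0.22 in jejunum and -0.32 in spleen, against 0.73. Cholesterol synthesis genes had medians above 0 in all 5 tissues, with 0.83 in ileum, 0.81 in liver, 0.27 in jejunum and 0.11 in spleen. Goblet cell genes stood at 0.44 in ileum and -0.10 in jejunum. With 1 array per tissue and age these differences between tissues were not tested.

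**Figure D5:**
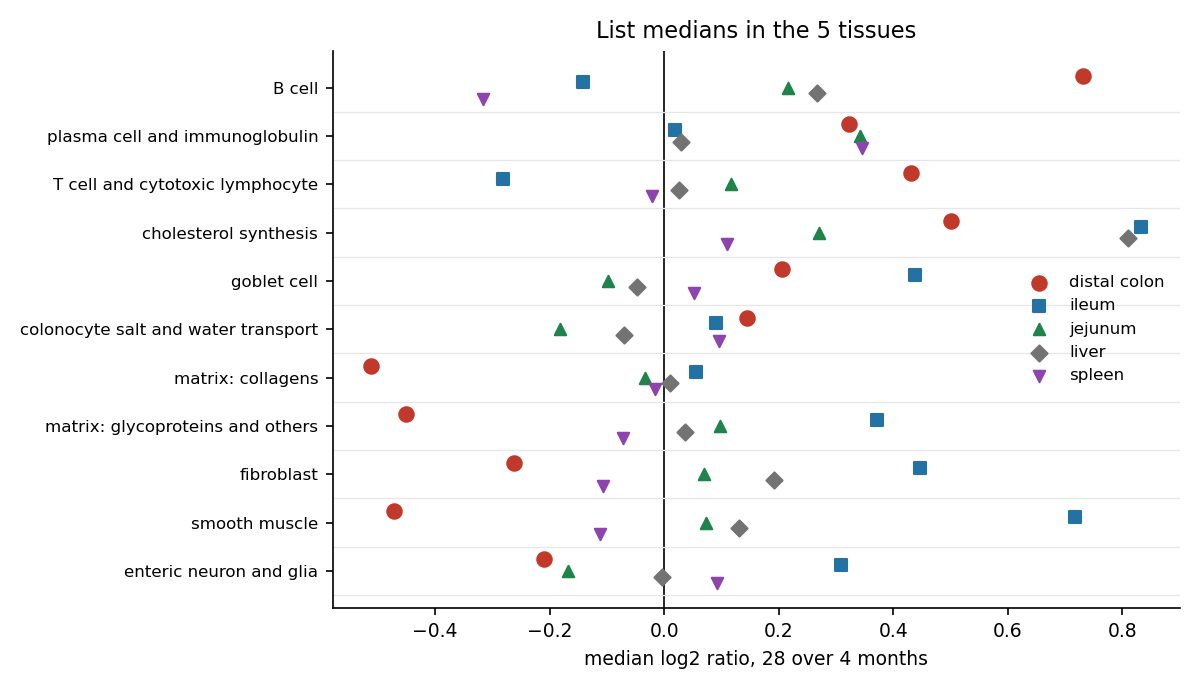
Median ratio (log2, 28 over 4 months) of 11 gene lists in each of the 5 tissues, over the members measured in that tissue. The distal colon median is the highest of the 5 for B cell genes, at 0.73, and the lowest for smooth muscle genes, at -0.47, and collagens, at -0.51.

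Control probe sets differed between the 2 arrays. Actin probe sets at the 3' end exceeded those at the 5' end by 1.12 at 4 months and 0.93 at 28 months (log2). For Gapdh the excess was 0.34 and 0.13. The hybridisation spikes averaged 10.8 and 9.88 log2 units before scaling, the 28-month value being the lowest of the 10 arrays. The labelling spikes averaged 5.54 and 6.43, the 4-month value being the lowest of the 10. The part of these differences in the ratios was not tested.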

How the data were processed

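Per the labels, each array read 1 pool of RNA. The authors deposited log2 signals, 1 per probe set, and MAS5 and the affy package are named without version or role per the submitters' processing notes. The log base and the normalisation between arrays are not given in the sources used here; base 2 was taken from the range of values, 2.71 to 14.8. Signals were converted to a linear scale, and every array was set to a mean of 500 units after trimming 2% at each end. The floor was the median of all signals, 111 units. GEO's platform annotation gave 1 gene for 34958 of 45101 probe sets, several for 932 and none listed for 9211. For the 18194 genes, of which 9012 had more than 1 probe set, the set with the highest mean log2 value over the 10 arrays was used. Precision is limited by 1 array per age, and the pools leave no spread between mice.

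The members and the 36 gene lists were chosen with earlier results of these data known. Named genes were the 20 with the largest ratios per direction with at least 2 floors of signal at 1 age or the other and every measured set past 1.5-fold in that direction. For each list, the first 6 members and the 6 with the largest ratios were added, and all members of the colonocyte, goblet, muscle, matrix, B cell, germinal centre, follicle and enteroendocrine lists. Alternatives were floors at percentiles 25 and 75, no floor with 16 units added, the deposited values unscaled, scaling to equal medians, quantile normalisation, lowess (span 0.3), the median over probe sets, leaving out sets of the kinds that may detect more than 1 transcript, and folds of 1.5 and 3. Taking the probe set brightest in the distal colon was added after seeing the data. The ratio script was tested on simulated data. Computation used Python 3.11.15, numpy 2.4.6, pandas 2.3.3, statsmodels 0.14.6 and matplotlib 3.10.9.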

Additional observations from a re-analysis of the deposited data

Results flagged for a closer look

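Several lists and genes had a ratio in the distal colon of the opposite sign to that in ileum or jejunum. With 1 array per tissue and age, the difference was not tested in any of them. The smooth muscle median was -0.47 in distal colon and 0.72 in ileum, and that of matrix glycoproteins, proteoglycans and elastic fibres -0.45 and 0.37. The fibroblast median was -0.26 in distal colon and 0.45 in ileum, and matrix proteases and inhibitors had -0.29 in distal colon against 0.30 in jejunum. T cell and cytotoxic lymphocyte genes had 0.43 in distal colon and -0.28 in ileum, and interferon response genes 0.37 and -0.33.

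Among single genes of muscle and matrix, Pcp4 stood at -1.80 in distal colon and 1.10 in ileum, Myom1 at -1.11 and 1.05, Pdlim3 at -1.02 and 0.68, and Aspn at -1.13 and 0.76. Of the epithelial genes, Tmigd1 stood at -3.75 in distal colon and 0.71 in ileum, and Slc51a at -2.47 or lower and 0.85. Ces1g stood at -3.36 or lower in distal colon, 1.07 in ileum and 0.87 in jejunum. Apob stood at 1.67 in distal colon and -0.71 in jejunum. Of the immune genes, Bank1 stood at 1.20 in distal colon and -0.71 in ileum, and Ccl5 at 1.44 and -0.94. Oasl2 stood at 1.01 or higher in distal colon, -0.91 in ileum and -0.74 in jejunum.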

How the results depend on the processing

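The counts of genes moved most with the floor and the fold. With the floor at percentile 75, 15 genes were higher and 34 lower, fewer genes being measured, and the B cell median was 0.53. At 1.5-fold 318 were higher and 285 lower, and at 3-fold 8 and 29. The other settings gave 51 to 83 higher and 56 to 78 lower. The main list medians kept their sign under every setting run, with smooth muscle from -0.53 to -0.44, collagens from -0.56 to -0.47, goblet cell genes from 0.19 to 0.24, cholesterol synthesis from 0.43 to 0.60 and B cell genes from 0.53 to 0.82. All 69 named genes past 2-fold kept their sign in each setting that gave a value, and 31 of 49 stayed past 2-fold with the floor at percentile 75. A gene with 1 age at the floor has only a bound. No paired analysis was possible because each age had 1 array.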

Other observations

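Genes of other cell types gave a few values outside the comparisons described. Lpl, which releases fatty acids from lipoproteins, went from 1341 to 527 units in distal colon, and both of its measured probe sets lay below 0, at -1.35 and -0.76. The fat cell genes Fabp4 and Pparg stood at 0.28 and 0.15. Cma1, a mast cell chymase, went from 189 to 347 units, a ratio of 0.88, while Mcpt1, Mcpt2, Mcpt4 and Cpa3 lay under the floor at both ages. Among tuft cell genes the median over 6 measured members was -0.10, with Dclk1 at 0.29 and Alox5ap at -0.52. Ly6d, in the squamous list, went from 283 to 550 units, a ratio of 0.96.

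Rps4l, a ribosomal protein gene chosen after its values were seen, went from 323 units at 4 months to 78 at 28 months in distal colon. It also had a lower signal at 28 months in ileum (1300 and 70 units), jejunum (1235 and 101), liver (929 and 235) and spleen (179 and 98). Cldn14, a tight junction protein, went from 134 to 367 units in distal colon and gave at most 77 units in ileum and jejunum and at most 83 in spleen, but 361 and 366 in liver. Serpina9 gave at most 42 units in ileum and jejunum.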
